A study of Oryza sativa with 8 samples.

Results

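The comparison set 3 rice shoot apex RNA-seq libraries labelled GW6a-4.6 against 2 libraries of the cultivar Nipponbare, 5 of the 8 libraries in the series. GW6a-4.6 is described as a substitution line, a plant in which a chromosome fragment from another rice cultivar replaces the same stretch of its own genome. Nipponbare is the japonica reference cultivar. The remaining 3 libraries, labelled OsglHAT1-OE, come from transgenic lines and entered the model as a separate group, for its estimate of the spread. Every sample carries the cultivar label Nipponbare and the tissue label shoot apical meristem, so the GW6a-4.6 and Nipponbare groups share the background and the tissue. The substituted fragment, the number of plants per library and the age of the plants are not given in the sources used here. Members were all loci of the deposited table, taken as the gene model with the highest mean at each locus. Of 36819 loci, 31487 passed a filter of at least 1 RPM (the unit named in the file, scaled to the library's total reads) in at least 2 libraries and were tested.

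GW6a encodes OsglHAT1, an acetyltransferase of the GNAT class that modifies histone H4 and is known in rice for its effect on grain weight. Histone acetylation loosens chromatin and generally accompanies transcription. The shoot apex holds the meristem, whose dividing stem cells give rise to leaf primordia, the stem and, later, the panicle, and these growing tissues loosen their walls and import sugars. The loci below are ordered by the role that the annotation column gives them, from carbohydrate use through stress protection, hormones, defence, the cell wall, transport and transcription factors to the machinery of division and of protein synthesis.

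The label of the line was checked on its own gene. Os06t0650300-00, the GNAT locus of GW6a, had 2642, 2573 and 2913 RPM in the libraries labelled GW6a-4.6, against 1.46 and 2.30 RPM in Nipponbare. The libraries labelled OsglHAT1-OE had 13.2, 8.87 and 10.02 RPM. The high level therefore stood under the substitution-line label and not under the label of the OsglHAT1-OE transgenic lines. Whether the labels of these groups were exchanged was not tested, and every direction below belongs to the libraries labelled GW6a-4.6. Library totals, recovered from the value of 1 read, were 5231450 to 5602109 in the libraries labelled GW6a-4.6 and 5207710 and 6836650 in Nipponbare. A count of 3 reads was worth 0.536 to 0.573 RPM in the GW6a-4.6-labelled libraries and 0.439 and 0.576 RPM in Nipponbare. Correlations of log2 values over the tested loci, which are not independent replicates, were 0.985 to 0.987 among the GW6a-4.6-labelled libraries, 0.989 within Nipponbare and 0.909 to 0.913 between the groups. Nothing in the labels says that replicates came from separate plants, so p-values measure the spread between these libraries, which may be technical.

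Shoot meristem markers as a set were detected in every library, although some were near 0 or had no read in a Nipponbare library. Of 7 shoot meristem markers 6 were tested, 3 were higher in the libraries labelled GW6a-4.6 and none was lower. One of the 3, OsWOX4 (Os04t0649400-00), had 1.43, 1.91 and 1.09 RPM in GW6a-4.6-labelled libraries and 0 and 0.384 RPM in Nipponbare. Its Nipponbare values stand for 1 to 3 reads in all. Their summed level was 387 to 402 RPM in the libraries labelled GW6a-4.6, against 183 to 186 RPM in Nipponbare. The KNOX homeobox genes OSH1 (Os03t0727000-01), with 96.4, 109 and 88.6 RPM in GW6a-4.6-labelled libraries and 33.4 and 29.96 RPM in Nipponbare (3.10-fold higher), and OSH15 (Os07t0129700-01), with 179, 149.7 and 177 RPM in GW6a-4.6-labelled libraries and 50.2 and 47.2 RPM in Nipponbare (3.46-fold higher), held most of that difference. Os05t0129700-01, the KNOX homeobox gene OSH71 that marks undifferentiated cells, had 104, 106 and 99.2 RPM in GW6a-4.6-labelled libraries and 89.8 and 85.6 RPM in Nipponbare and did not pass the test (log2 change 0.23, SE 0.11, limma, Benjamini-Hochberg adjusted p = 0.089). Os06t0610350-00, annotated similar to Monoculm1, a regulator of tillering, had 0.357, 0.382 and 1.45 RPM in GW6a-4.6-labelled libraries and 0.585 and 0 RPM in Nipponbare and was not called. Leaf primordium markers (YABBY genes and DROOPING LEAF) were higher at 5 of 6 tested loci, with sums of 289 to 330 RPM in the libraries labelled GW6a-4.6 and 213 to 235 RPM in Nipponbare. All 3 tested inflorescence markers, of 7 in the table, were higher, with sums of 133 to 166 RPM in GW6a-4.6-labelled libraries and 92.7 to 94.1 RPM in Nipponbare. Green leaf markers were higher at 11 and lower at 11 of 57 tested loci, with sums of 4469 to 5587 RPM in GW6a-4.6-labelled libraries and 5380 to 5889 RPM in Nipponbare. Pollen-annotated markers were higher at 13 and lower at 3 of 34 tested loci, with sums of 2916 to 3245 RPM in GW6a-4.6-labelled libraries and 2736 to 2879 RPM in Nipponbare. Root-annotated markers were higher at 1 and lower at 1 of 7. In whole tissue, a larger share of a cell type and more RNA per cell cannot be told apart, and the part of these shifts in the results below was not tested.

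Nearly as many loci differed between the groups as did not. At a Benjamini-Hochberg adjusted p under 0.05 in limma, 46.3% of the tested loci were called, 26.7% higher and 19.5% lower in the libraries labelled GW6a-4.6, that is 8413 and 6153 loci. A log2 change of at least 1 was reached by 10.5% in the higher and 6.45% in the lower direction. The groups did not overlap at 64.5% of all tested loci, with the libraries labelled GW6a-4.6 above at 36.0% and below at 28.5%. The median log2 change of all tested loci was 0.07, and scaling by the median ratio moved it to -0.00098 and the split to 7992 higher and 7901 lower. Any family share below has to be read against these shares. Within families, loci named for a rise or fall were picked from called loci whose groups did not overlap. A lack of overlap at them therefore follows from the choice and adds no support. Further loci, marked below, were chosen after their values were seen. Splits of a family by role were also made after the values were seen. Annotation text placed 6314 tested loci in 80 families, of which 76 had at least 20 tested members. With the deposited scaling, more members were higher than lower in 47 of those 76, and more were lower in 28. This tally depends on scaling. Under median-ratio scaling several families, among them NB-ARC receptors and cytosolic ribosomal proteins, turned to more lower than higher members. Others, such as expansins and chitinases, kept more higher members.

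**Figure D1:**
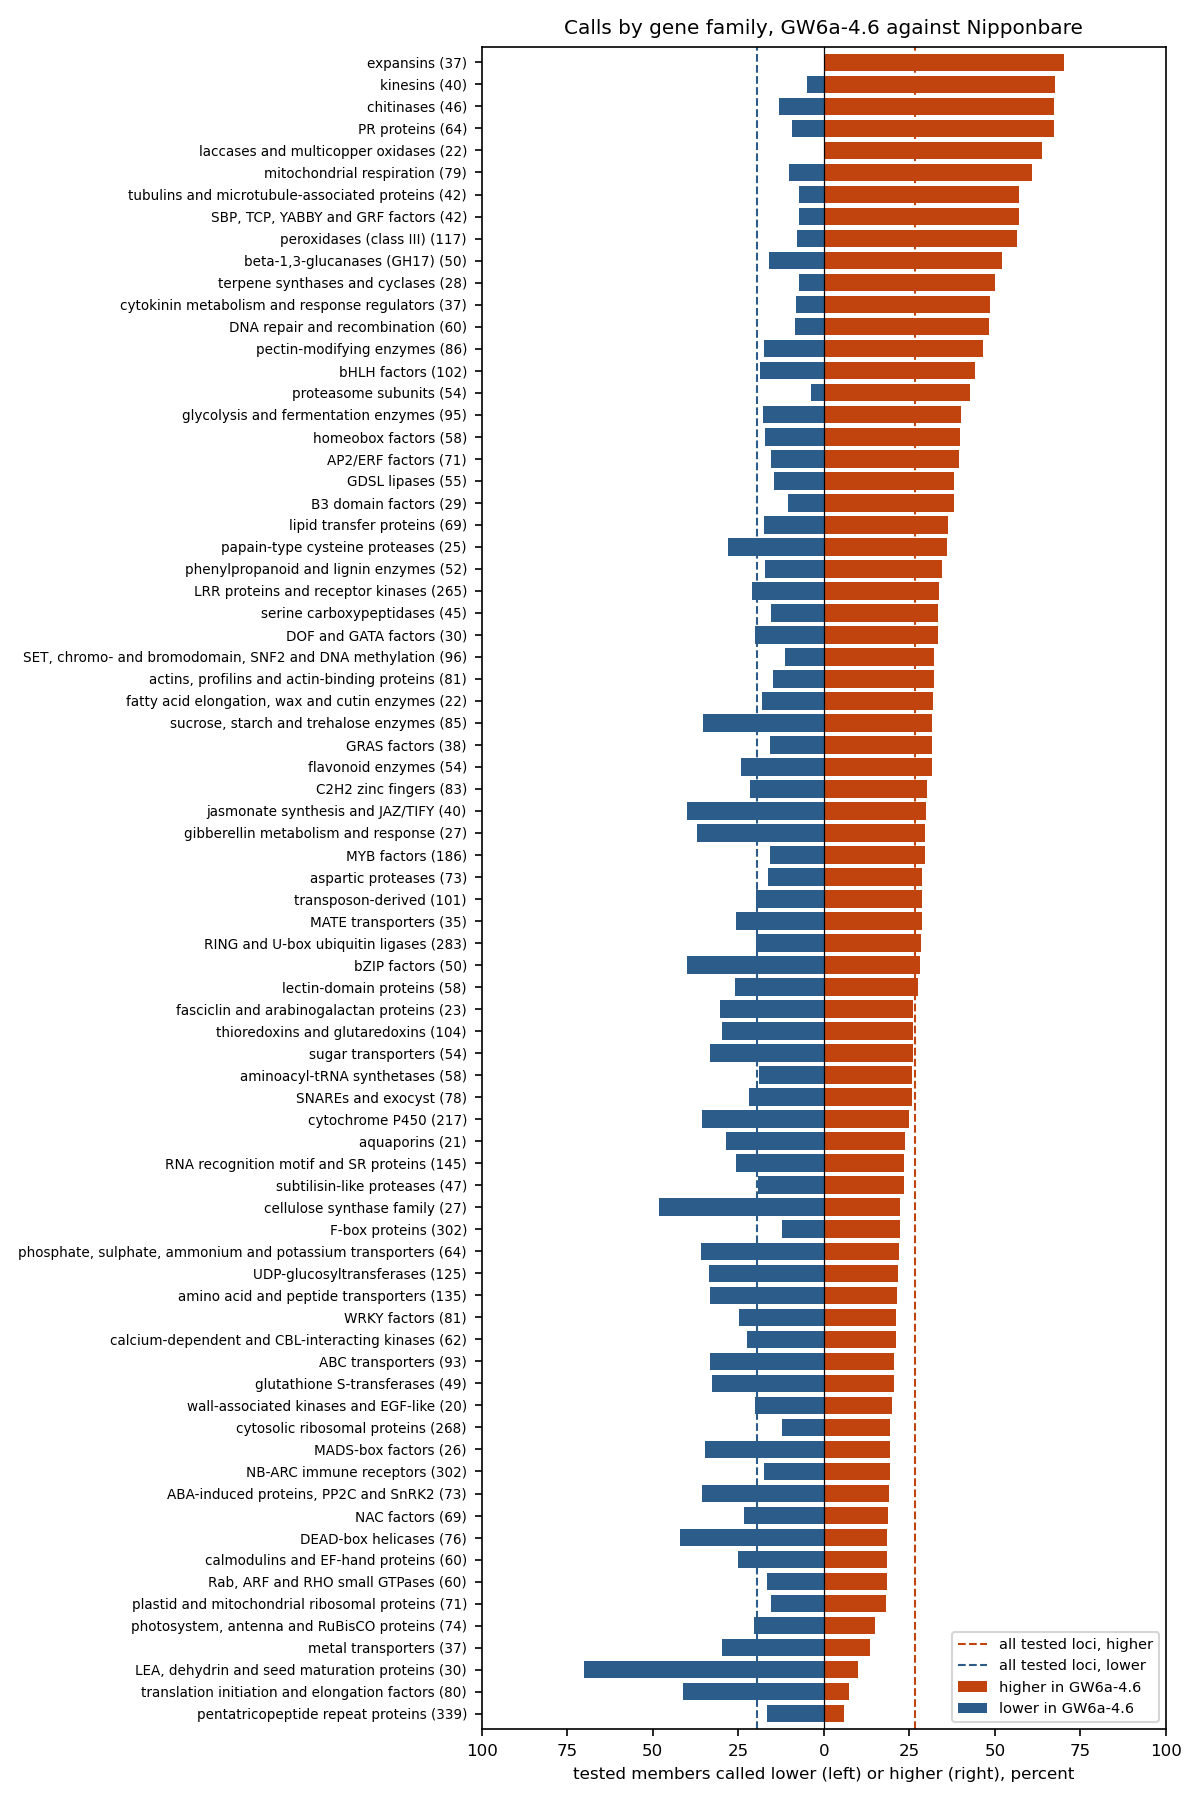
Share of tested members called higher (right, percent) or lower (left, percent) in libraries labelled GW6a-4.6 than in Nipponbare, for each family with at least 20 tested members (number in brackets), sorted by the share called higher. Dashed lines mark the shares over all tested loci, 26.7% higher and 19.5% lower. Expansins, kinesins, chitinases and PR proteins lie at the top and pentatricopeptide repeat, translation factor and LEA families at the bottom.

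Most starch-making enzymes were lower and most sucrose synthases higher in the libraries labelled GW6a-4.6. The sucrose, starch and trehalose enzymes as a whole did not lean one way. They had 95 members in the table, 85 of them tested, and 27 were higher and 30 lower, with a median log2 change of -0.06. A split by enzyme role, made after the values were seen, separated them. Of the starch synthesis enzymes, 6 of 26 tested were higher and 14 lower, of the alpha-amylases 6 of 8 tested were higher and 0 lower, of the beta-amylases 1 of 7 tested were higher and 4 lower, of the sucrose synthases 5 of 6 tested were higher and 1 lower, of the invertases 2 of 16 tested were higher and 4 lower and of the trehalose enzymes 7 of 13 tested were higher and 2 lower.

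ADP-glucose pyrophosphorylase makes the ADP-glucose from which starch is built. Os05t0580000-01, annotated as this enzyme, had 339, 335 and 341 RPM in the libraries labelled GW6a-4.6, against 2954 and 2995 RPM in Nipponbare. It was 8.80-fold lower (log2 change -3.13, SE 0.08, limma, Benjamini-Hochberg adjusted p = 1.2e-28). Branching enzyme I, which introduces the branch points of amylopectin, had 293, 311 and 324 RPM in GW6a-4.6-labelled libraries and 1566 and 1664 RPM in Nipponbare at Os06t0726400-01, and was 5.22-fold lower (log2 change -2.38, SE 0.08, limma, Benjamini-Hochberg adjusted p = 1.7e-24). Granule-bound starch synthase Ib, the amylose-making isoform outside the endosperm, had 319.9, 329.9 and 337 RPM in GW6a-4.6-labelled libraries and 1189 and 1242 RPM in Nipponbare at Os07t0412100-01 (3.69-fold lower, log2 change -1.88, SE 0.08). The groups lay far apart at all of these loci, and the libraries of each group lay close to each other. Starch synthase I (Os06t0160700-01) was 3.75-fold lower and the isoamylase-type debranching enzyme ISO2 (Os05t0393700-01) 4.17-fold lower. Not every starch synthesis locus fell. Os01t0720600-02, annotated as starch synthase IVa, had 72.8, 97.9 and 87.5 RPM in GW6a-4.6-labelled libraries and 48.1 and 51.1 RPM in Nipponbare (1.74-fold higher, log2 change 0.77, SE 0.12), and Os10t0437600-00, similar to starch synthase II, had 135, 133 and 134 RPM in GW6a-4.6-labelled libraries and 136 and 139 RPM in Nipponbare and did not pass (log2 change -0.03, SE 0.10, limma, Benjamini-Hochberg adjusted p = 0.8). Apart from the ADP-glucose pyrophosphorylase and branching enzyme I, the loci in this paragraph were chosen after their values were seen.

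The amylases, which break starch down, leaned in opposite directions by type. Os03t0141200-01, similar to a beta-amylase, which releases maltose from chain ends, had 19.99, 12.04 and 17.9 RPM in the libraries labelled GW6a-4.6, against 618 and 535 RPM in Nipponbare. It was 34.6-fold lower (log2 change -5.06, SE 0.16, limma, Benjamini-Hochberg adjusted p = 1.8e-25). Os10t0465700-01, annotated to the same beta-amylase, was 4.77-fold lower. Alpha-amylases, which cut within the chains, were low in Nipponbare. Os02t0765400-00 of this type had 37.3, 33.3 and 23.7 RPM in GW6a-4.6-labelled libraries and 0.585 and 0.576 RPM in Nipponbare (54.1-fold higher, log2 change 4.33, SE 0.26). Os01t0357400-01, another alpha-amylase, had 30.4, 25.4 and 17.9 RPM in GW6a-4.6-labelled libraries and 0.146 and 0.192 RPM in Nipponbare, where the Nipponbare values stand for 1 read each and no fold is given. Alike copies may share reads, and the 3 loci other than Os03t0141200-01 were chosen after their values were seen.

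Sucrose synthases cleave imported sucrose into UDP-glucose and fructose. Os03t0401300-01, annotated sucrose synthase 2, had 5265, 5841 and 5779 RPM in the libraries labelled GW6a-4.6, against 1585 and 1507 RPM in Nipponbare, and was 3.64-fold higher (log2 change 1.86, SE 0.06, limma, Benjamini-Hochberg adjusted p = 2.3e-24). Os06t0194900-01 had 1609, 1717 and 1747 RPM in GW6a-4.6-labelled libraries and 940.2 and 899.8 RPM in Nipponbare (1.84-fold higher). The exception was Os03t0340500-01, with 135, 145 and 141 RPM in GW6a-4.6-labelled libraries and 272 and 285 RPM in Nipponbare (1.98-fold lower). Invertases, which also split sucrose, moved both ways. The locus similar to cell wall invertase 2, Os04t0413500-01, had 107, 84.7 and 96.5 RPM in GW6a-4.6-labelled libraries and 2.92 and 3.07 RPM in Nipponbare (32.05-fold higher), and cell wall invertase Os02t0534400-01 had 67.7, 61.2 and 58.9 RPM in GW6a-4.6-labelled libraries and 228 and 208 RPM in Nipponbare (3.49-fold lower). Trehalose-6-phosphate synthases make the sugar phosphate that signals sucrose supply. Os08t0414700-01 had 172, 183 and 169.5 RPM in GW6a-4.6-labelled libraries and 32.8 and 32.8 RPM in Nipponbare (5.33-fold higher), and Os02t0790500-02 had 242, 229 and 233 RPM in GW6a-4.6-labelled libraries and 75.9 and 77.4 RPM in Nipponbare (3.06-fold higher). No library of a group reached the other group at any of these loci, of which those after Os03t0401300-01 were chosen after their values were seen.

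Most pyruvate decarboxylases, the first enzyme of alcoholic fermentation, were higher in the libraries labelled GW6a-4.6. Glycolysis and fermentation enzymes had 102 members in the table, 95 of them tested, and 38 were higher and 17 lower, with a median log2 change of 0.23. Pyruvate decarboxylase and alcohol dehydrogenase together turn pyruvate into ethanol and regenerate NAD when oxygen is short. Os05t0469600-01, similar to pyruvate decarboxylase, had 245, 223 and 238 RPM in the libraries labelled GW6a-4.6, against 9.07 and 7.30 RPM in Nipponbare, and was 28.8-fold higher (log2 change 4.69, SE 0.19, limma, Benjamini-Hochberg adjusted p = 6.5e-22). Its neighbour Os05t0469800-00 had 314, 298 and 311 RPM in GW6a-4.6-labelled libraries and 13.02 and 16.7 RPM in Nipponbare (20.7-fold higher), and the 2 loci may share reads. Of all pyruvate decarboxylases, split off after the values were seen, 4 of 5 tested were higher and 1 lower. Os03t0293500-02, the highest of them, had 731, 678 and 728 RPM in GW6a-4.6-labelled libraries and 304 and 281 RPM in Nipponbare (2.44-fold higher). The exception, Os01t0160100-01, had 54.3, 59.5 and 57.95 RPM in GW6a-4.6-labelled libraries and 106 and 99.5 RPM in Nipponbare (1.80-fold lower). Os11t0210500-01, similar to alcohol dehydrogenase, had 285, 280.4 and 260.4 RPM in GW6a-4.6-labelled libraries and 58.7 and 47.8 RPM in Nipponbare (5.17-fold higher, log2 change 2.35, SE 0.11). The highest member of the family, enolase Os10t0167300-01, had 2722, 2749 and 2779 RPM in GW6a-4.6-labelled libraries and 2327 and 2315 RPM in Nipponbare (1.18-fold higher). Plastid fructose-bisphosphate aldolase, a Calvin cycle enzyme, went the other way at Os11t0171300-01, with 294, 241 and 254 RPM in GW6a-4.6-labelled libraries and 859.8 and 765 RPM in Nipponbare (3.09-fold lower, log2 change -1.63, SE 0.09). Os03t0293500-02 and Os01t0160100-01 were chosen after their values were seen.

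**Figure D2:**
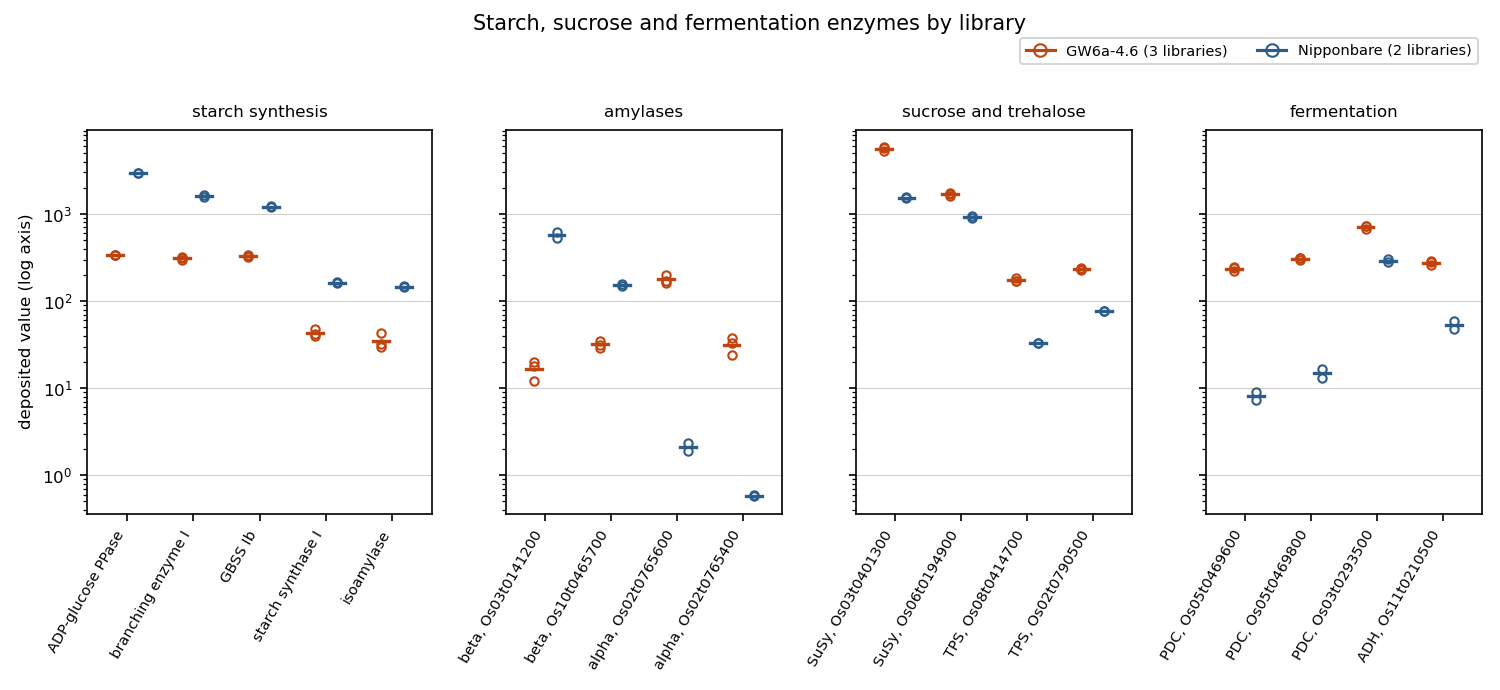
Deposited values in RPM (log axis) of starch, amylase, sucrose and trehalose, and fermentation loci in each library, GW6a-4.6-labelled on the left of each pair and Nipponbare on the right. Circles are libraries (3 and 2), bars are group means, PPase is pyrophosphorylase, GBSS granule-bound starch synthase, SuSy sucrose synthase, TPS trehalose-6-phosphate synthase, PDC pyruvate decarboxylase and ADH alcohol dehydrogenase. Starch synthesis and beta-amylase loci lie lower, and alpha-amylase, sucrose synthase and fermentation loci higher, in the GW6a-4.6-labelled libraries.

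Respiratory chain proteins rose by small amounts at many loci. They had 81 members in the table, 79 of them tested, and 48 were higher and 8 lower, with a median log2 change of 0.35, and 13 of the 48 were higher by at least 1 on the log2 scale. Os01t0685800-01, the beta chain of the mitochondrial ATP synthase and the highest member, had 1002, 1020 and 1014 RPM in the libraries labelled GW6a-4.6, against 723 and 758 RPM in Nipponbare, and was 1.37-fold higher (log2 change 0.45, SE 0.07, limma, Benjamini-Hochberg adjusted p = 8.2e-07). Os04t0261400-01, annotated with a cytochrome c region, had 40.7, 37.1 and 38.4 RPM in GW6a-4.6-labelled libraries and 13.2 and 12.7 RPM in Nipponbare (2.998-fold higher). Os05t0400400-01, a small subunit of the ubiquinol-cytochrome c reductase, had 178, 145 and 157 RPM in GW6a-4.6-labelled libraries and 73.9 and 77.6 RPM in Nipponbare (2.11-fold higher). Against this, Os12t0423142-00, similar to NADH dehydrogenase subunit 3, had 15.7, 10.7 and 14.1 RPM in GW6a-4.6-labelled libraries and 56.5 and 41.9 RPM in Nipponbare (3.64-fold lower). Names of NADH dehydrogenase subunits do not separate mitochondrial from plastid genes. Among respiratory loci, the 8 lower became 5 with Nipponbare replicate 1 left out.

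With the deposited scaling, a smaller share of photosynthetic proteins than of all tested loci was called. Photosystem, antenna and RuBisCO proteins had 79 members in the table, 74 of them tested, and 11 were higher and 15 lower, with a median log2 change of -0.04, and 1 was higher and 6 lower by at least 1 on the log2 scale. The share called was 35.1%, against 46.3% of all tested loci. Under median-ratio scaling 10 were higher and 27 lower, while 15893 of all 31487 tested loci were called. The share of the family was then close to that of all loci. Among photosynthetic loci, the 11 higher became 7 with Nipponbare replicate 1 left out, 6 with Nipponbare replicate 2 left out, 19 with GW6a-4.6 replicate 2 left out and 6 with GW6a-4.6 replicate 3 left out. Os09t0346500-04, an antenna chlorophyll a-b binding protein, had 797, 623 and 672 RPM in GW6a-4.6-labelled libraries and 1021 and 923 RPM in Nipponbare (1.39-fold lower, log2 change -0.48, SE 0.09). Some members had far larger changes. The 22 kDa photosystem II protein Os04t0690800-01 had 3.93, 5.54 and 4.89 RPM in GW6a-4.6-labelled libraries and 55 and 56.1 RPM in Nipponbare (11.6-fold lower), the PsbS locus Os01t0869800-01, a subunit that helps shed excess light, had 29.6, 22.6 and 26.8 RPM in GW6a-4.6-labelled libraries and 128 and 116 RPM in Nipponbare (4.62-fold lower), and a RuBisCO small subunit, Os12t0292400-01, was 5.01-fold lower. The last 3 loci were chosen after their values were seen. Early light-inducible proteins, which bind chlorophyll freed under light stress, are a separate group. Os07t0178700-01 had 2.68, 1.72 and 1.81 RPM in the libraries labelled GW6a-4.6, against 148 and 124 RPM in Nipponbare, and was 65.8-fold lower (log2 change -5.49, SE 0.25, limma, Benjamini-Hochberg adjusted p = 2.5e-20). Its neighbour Os07t0178800-01 had 1.07, 1.34 and 0.362 RPM in GW6a-4.6-labelled libraries and 139.7 and 119 RPM in Nipponbare (140.1-fold lower). All 3 early light-inducible loci tested, grouped after the values were seen, were lower.

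Late embryogenesis abundant (LEA) proteins and dehydrins shield membranes and proteins when cells dry out, in ripening seeds and in stressed leaves. Most of them were lower in the libraries labelled GW6a-4.6. LEA, dehydrin and seed maturation proteins had 40 members in the table, 30 of them tested, and 3 were higher and 21 lower, with a median log2 change of -1.36, and 17 of the 21 were lower by at least 1 on the log2 scale. The share lower was 70.0%, against 19.5% of all tested loci. Os01t0705200-01, a LEA repeat protein, had 59.3, 45.9 and 45.6 RPM in the libraries labelled GW6a-4.6, against 813 and 772 RPM in Nipponbare, and was 15.8-fold lower (log2 change -3.96, SE 0.12, limma, Benjamini-Hochberg adjusted p = 2.3e-25). Os03t0168100-01, another, had 0.714, 0.382 and 0 RPM in GW6a-4.6-labelled libraries and 124 and 103 RPM in Nipponbare (310.1-fold lower), and dehydrin RAB 16B (Os11t0454200-01) had 5.36, 4.21 and 6.16 RPM in GW6a-4.6-labelled libraries and 355 and 328 RPM in Nipponbare (65.2-fold lower). The Nipponbare libraries were the high ones at each of these loci, by factors far above the spread of either group. RAB21 (Os11t0454300-01), its neighbour, was 12.4-fold lower, and LEA-like Os05t0542500-02 62.1-fold lower. Among the few higher loci, Os01t0109000-01, similar to group 3 LEA proteins, had 27.1, 23.5 and 24.6 RPM in GW6a-4.6-labelled libraries and 16.2 and 13.6 RPM in Nipponbare (log2 change 0.71, SE 0.19, limma, Benjamini-Hochberg adjusted p = 0.0022). Among LEA loci, the 3 higher became 1 with Nipponbare replicate 1 left out and 0 with Nipponbare replicate 2 left out. RAB 16B, RAB21 and Os05t0542500-02 were chosen after their values were seen.

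Markers of seed and embryo, a list that shares its LEA loci with the family above, were lower at 15 and higher at 5 of 32 tested loci, with 74 in the table. Their sums were 1131 to 1204 RPM in the libraries labelled GW6a-4.6, against 2544 and 2748 RPM in Nipponbare. The text search for globulin also took up immunoglobulin-like loci. Of the 74, 23 had no read in the GW6a-4.6-labelled libraries, 34 none in Nipponbare and 18 none in either. Storage proteins, which define seeds, are also on the list. Of the 11 tested glutelin and prolamin loci, 2 were higher and 3 lower. The higher ones were Os01t0644600-00, 1.84-fold higher, and Os02t0453600-01, 6.49-fold higher. The lower ones were Os03t0188500-01, 2.19-fold lower, Os12t0472500-01, 3.04-fold lower, and Os10t0400200-01, 1.40-fold lower. The most abundant, glutelin locus Os01t0111900-01 had 102, 118 and 110.5 RPM in GW6a-4.6-labelled libraries and 112 and 107 RPM in Nipponbare and did not pass (log2 change 0.01, SE 0.11, limma, Benjamini-Hochberg adjusted p = 0.97), and the 10 kDa prolamin Os03t0766100-01 had 1.78, 1.91 and 4.71 RPM in GW6a-4.6-labelled libraries and 1.02 and 2.30 RPM in Nipponbare. The storage loci were chosen after their values were seen. The part of seed-type RNA in the lower LEA levels was not tested.

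Other stress-protection families were split. Loci annotated to abscisic acid induction, to protein phosphatases 2C, which hold the abscisic acid pathway off, or to SnRK2 kinases, which carry it, had 78 members in the table, 73 of them tested, and 14 were higher and 26 lower, with a median log2 change of -0.11. Os06t0698300-01, a protein phosphatase 2C, had 10.4, 14.5 and 15.6 RPM in the libraries labelled GW6a-4.6, against 138 and 127 RPM in Nipponbare, and was 9.82-fold lower (log2 change -3.22, SE 0.23, limma, Benjamini-Hochberg adjusted p = 2.0e-14). Os09t0557900-01, similar to the gamma isoform, had 55.9, 52.8 and 66.5 RPM in GW6a-4.6-labelled libraries and 21.4 and 20.5 RPM in Nipponbare (2.79-fold higher). Metallothioneins, cysteine-rich metal binders, had 14 members, all tested, and 1 were higher and 8 lower, with a median log2 change of -0.68. Os12t0570700-01, a type 1 metallothionein, had 39.98, 33.6 and 35.7 RPM in GW6a-4.6-labelled libraries and 741 and 715 RPM in Nipponbare (19.99-fold lower, log2 change -4.29, SE 0.14), whereas RicMT (Os01t0974200-01), the highest of the family, had 4422, 3596 and 3650 RPM in GW6a-4.6-labelled libraries and 2989 and 2730 RPM in Nipponbare (1.36-fold higher). Glutathione S-transferases, which conjugate toxic compounds, had 57 members in the table, 49 of them tested, and 10 were higher and 16 lower, with a median log2 change of -0.04. Os10t0530200-01 had 47.3, 42.2 and 52.3 RPM in GW6a-4.6-labelled libraries and 2.93 and 0.960 RPM in Nipponbare (24.3-fold higher), and Os01t0692100-01 had 5.89, 5.93 and 5.80 RPM in GW6a-4.6-labelled libraries and 73.4 and 66.8 RPM in Nipponbare (11.9-fold lower). Among glutathione S-transferases, the 16 lower became 10 with Nipponbare replicate 1 left out. SalT (Os01t0348900-01), a salt-induced lectin of leaf bases and among the largest rises in RPM of all annotated loci, had 2321, 2193 and 2201 RPM in GW6a-4.6-labelled libraries and 257 and 248 RPM in Nipponbare (8.87-fold higher, log2 change 3.14, SE 0.08).

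Most Tify/ZIM genes of the jasmonate pathway were lower. Jasmonate is made from plastid lipids through lipoxygenase, allene oxide synthase and cyclase, and oxophytodienoate reductase, and its response genes are held by repressors of the Tify/ZIM family (the JAZ proteins), which jasmonate itself induces. The jasmonate family had 51 members in the table, 40 of them tested, and 12 were higher and 16 lower, with a median log2 change of -0.07. Split by role after the values were seen, 1 of 12 tested were higher and 9 lower among Tify/ZIM loci, 2 of 11 tested were higher and 6 lower among the enzymes after lipoxygenase, and 6 of 14 tested were higher and 1 lower among all lipoxygenases. Os03t0180800-01, a ZIM motif protein, had 1.07, 1.53 and 0.724 RPM in the libraries labelled GW6a-4.6, against 36.9 and 29.2 RPM in Nipponbare, and was 29.8-fold lower (log2 change -4.02, SE 0.30, limma, Benjamini-Hochberg adjusted p = 6.5e-14). Os03t0181100-01 had 8.93, 8.03 and 7.06 RPM in GW6a-4.6-labelled libraries and 81.03 and 79.1 RPM in Nipponbare (10-fold lower). Os09t0439200-01 had 20.4, 21.4 and 17.9 RPM in GW6a-4.6-labelled libraries and 105 and 87.6 RPM in Nipponbare (4.84-fold lower). All 3 were low in every GW6a-4.6-labelled library without overlap. The opposite was seen at Os08t0428400-01, with 241, 223 and 207 RPM in GW6a-4.6-labelled libraries and 110.0 and 107 RPM in Nipponbare (2.06-fold higher), and the highest Tify locus, Os07t0615200-01, did not pass with 552, 507 and 558 RPM in GW6a-4.6-labelled libraries and 596 and 571 RPM in Nipponbare (log2 change -0.11, SE 0.08, limma, Benjamini-Hochberg adjusted p = 0.28).

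Loci further along the jasmonate route moved both ways. Os10t0361000-01, a lipoxygenase, had 140.3, 104 and 109 RPM in GW6a-4.6-labelled libraries and 14.04 and 11.9 RPM in Nipponbare (9.08-fold higher), and lipoxygenase Os04t0447100-01 had 23.7, 25.8 and 21.9 RPM in GW6a-4.6-labelled libraries and 117 and 94.7 RPM in Nipponbare (4.44-fold lower). Os06t0216300-01, similar to 12-oxophytodienoate reductase, had 6.07, 5.93 and 5.07 RPM in GW6a-4.6-labelled libraries and 27.6 and 21.1 RPM in Nipponbare (4.29-fold lower). Os12t0198700-01, annotated as a jasmonate-induced protein, had 79.97, 80.5 and 86.2 RPM in the libraries labelled GW6a-4.6, against 1.17 and 2.11 RPM in Nipponbare, and was 50.1-fold higher (limma, Benjamini-Hochberg adjusted p = 1.1e-20). This locus, induced by jasmonate according to its name, was higher where most Tify loci were lower. In the jasmonate paragraphs Os09t0439200-01, Os08t0428400-01 and the lipoxygenases and reductase were chosen after their values were seen.

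Many cytokinin genes were higher and few were lower. Cytokinin keeps meristem cells dividing, is released in active form by LOG enzymes, and induces A-type response regulators, which damp its own signal. The family had 49 members in the table, 37 of them tested, and 18 were higher and 3 lower, with a median log2 change of 0.42. Of the A-type response regulators, split off after the values were seen, 9 of 10 tested were higher and 0 lower. Os04t0673300-01, of this type, had 37.8, 26 and 29.7 RPM in the libraries labelled GW6a-4.6, against 9.65 and 10.4 RPM in Nipponbare, and was 3.11-fold higher (log2 change 1.53, SE 0.17, limma, Benjamini-Hochberg adjusted p = 9.2e-10). Os02t0557800-02, also A-type, had 104, 96.7 and 93.1 RPM in GW6a-4.6-labelled libraries and 46.5 and 46.5 RPM in Nipponbare (2.10-fold higher). A response regulator receiver protein, Os09t0532400-01, had 434, 477 and 449 RPM in GW6a-4.6-labelled libraries and 111 and 119.8 RPM in Nipponbare (3.93-fold higher). Os02t0628000-00, annotated to a LOG-type enzyme, had 13.2, 11.1 and 10.7 RPM in GW6a-4.6-labelled libraries and 2.93 and 2.88 RPM in Nipponbare (4.02-fold higher), while the meristem gene LOG itself, Os01t0588900-01, had 20.4, 20.1 and 19.4 RPM in GW6a-4.6-labelled libraries and 12.1 and 19.01 RPM in Nipponbare and did not pass (log2 change 0.37, SE 0.21, limma, Benjamini-Hochberg adjusted p = 0.14). The 4 called loci did not overlap between the groups. Os02t0557800-02 was chosen after its values were seen.

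Smaller hormone families are given by count. Ethylene genes had 22 members in the table, 18 of them tested, and 6 were higher and 2 lower, with a median log2 change of 0.05, a median that turned to -0.02 under median-ratio scaling. An ACC oxidase, the last step of ethylene synthesis, had 98.9, 87.9 and 105 RPM in GW6a-4.6-labelled libraries and 15.2 and 13.6 RPM in Nipponbare at Os01t0580500-01 (6.75-fold higher). Ethylene receptor Os04t0169100-02, which holds the response off until ethylene binds, had 187, 216 and 201 RPM in GW6a-4.6-labelled libraries and 73.1 and 68.2 RPM in Nipponbare (2.85-fold higher), and the EIN3-like transcription activator Os03t0324300-04 had 481, 489 and 471 RPM in GW6a-4.6-labelled libraries and 185 and 176 RPM in Nipponbare (2.66-fold higher). All 3 loci were higher in every GW6a-4.6-labelled library. Gibberellin genes had 32 members in the table, 27 of them tested, and 8 were higher and 10 lower, with a median log2 change of -0.01. Ent-kaurene synthase Os12t0491800-01, an early step, had 113, 118 and 109 RPM in GW6a-4.6-labelled libraries and 29.5 and 23.4 RPM in Nipponbare (4.28-fold higher), and gibberellin 20 oxidase Os03t0856700-02, a late step, had 7.85, 4.59 and 6.34 RPM in GW6a-4.6-labelled libraries and 17.3 and 19.2 RPM in Nipponbare (2.91-fold lower). Brassinosteroid genes had 13 members in the table, 12 of them tested, and 8 were higher and 1 lower, with a median log2 change of 0.35. The GRAS protein Os06t0127800-01, annotated to brassinosteroid signalling, had 58.01, 65.2 and 58.9 RPM in GW6a-4.6-labelled libraries and 28.5 and 17.9 RPM in Nipponbare (2.62-fold higher), and Os07t0580500-01, of the BES1/BZR1 factors that carry the signal to genes, had 137, 109 and 110.3 RPM in GW6a-4.6-labelled libraries and 77.5 and 64.7 RPM in Nipponbare (1.67-fold higher).

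Many secreted defence proteins were higher in the libraries labelled GW6a-4.6. Chitinases, which cut fungal cell walls, had 47 members in the table, 46 of them tested, and 31 were higher and 6 lower, with a median log2 change of 1.05. Pathogenesis-related (PR) proteins, secreted antifungal proteins such as PR-1, thaumatin-like and PBZ1 proteins, had 83 members in the table, 64 of them tested, and 43 were higher and 6 lower, with a median log2 change of 1.24. Beta-1,3-glucanases of family 17, which cut callose and fungal glucans, had 55 members in the table, 50 of them tested, and 26 were higher and 8 lower, with a median log2 change of 0.42, and 13 were lower under median-ratio scaling. The shares higher were 67.4%, 67.2% and 52.0%, against 26.7% of all tested loci. WRKY factors, regulators of defence genes, had 88 members in the table, 81 of them tested, and 17 were higher and 20 lower, with a median log2 change of -0.16, while NB-ARC immune receptors, intracellular sensors of pathogens, had 355 members in the table, 302 of them tested, and 58 were higher and 53 lower, with a median log2 change of 0.03. The NB-ARC median turned to -0.04 under median-ratio scaling, with 55 higher and 72 lower. Among NB-ARC loci, the 53 lower became 30 with Nipponbare replicate 1 left out and 34 with Nipponbare replicate 2 left out.

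A run of class III chitinase genes on chromosome 11, Os11t0701000 to Os11t0702200, was higher throughout. All 10 tested members passed, with log2 changes of 2.63 to 5.64. Os11t0701000-01, OsChib3H-c, had 118, 98.8 and 97.8 RPM in the libraries labelled GW6a-4.6, against 1.17 and 2.88 RPM in Nipponbare, and was 51.7-fold higher (log2 change 5.18, SE 0.23, limma, Benjamini-Hochberg adjusted p = 1.2e-20). Os11t0701200-01 had 202, 149 and 168 RPM in GW6a-4.6-labelled libraries and 3.36 and 3.26 RPM in Nipponbare (52.2-fold higher). These copies are alike and may share reads, so the count of independent rises is uncertain. Outside the run, Os05t0247100-02, the highest chitinase locus, had 736, 674 and 673 RPM in GW6a-4.6-labelled libraries and 255 and 239 RPM in Nipponbare (2.81-fold higher), and Os05t0247800-01 had 332, 316 and 321 RPM in GW6a-4.6-labelled libraries and 57.6 and 59.3 RPM in Nipponbare (5.53-fold higher). Os04t0493400-01, similar to chitinase, was the called locus with the largest fall, with 241, 229 and 237 RPM in GW6a-4.6-labelled libraries and 543 and 551 RPM in Nipponbare (2.32-fold lower). Os05t0247800-01 and the limits of the run were chosen after values were seen.

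A second run stood on chromosome 7, where 15 neighbouring PR-1 and Allergen V5 loci from Os07t0124900 to Os07t0129300 were tested and all 15 were higher, by 1.07 to 3.52 on the log2 scale. Os07t0126100-00 of this run had 64.98, 55.2 and 58.1 RPM in the libraries labelled GW6a-4.6, against 8.04 and 4.61 RPM in Nipponbare, and was 9.40-fold higher (log2 change 3.08, SE 0.21, limma, Benjamini-Hochberg adjusted p = 3.6e-15). They too may share reads. The PR family was split by type after the values were seen. Of all PR-1 and Allergen V5 loci 20 of 28 tested were higher and 2 lower, and of all thaumatin-like loci 19 of 30 tested were higher and 3 lower. PR-1a locus Os10t0191300-01 had 493, 404 and 439 RPM in GW6a-4.6-labelled libraries and 144 and 129 RPM in Nipponbare (3.27-fold higher), thaumatin-like Os12t0628600-01 had 409, 336 and 340.5 RPM in GW6a-4.6-labelled libraries and 74.5 and 70.9 RPM in Nipponbare (4.98-fold higher) and PBZ1 Os12t0555000-01 had 452, 379 and 366 RPM in GW6a-4.6-labelled libraries and 78.8 and 79.3 RPM in Nipponbare (5.04-fold higher). Every GW6a-4.6-labelled library lay above both Nipponbare libraries at these loci. Bowman-Birk inhibitors of proteases were mixed, and 2 of 7 tested were higher and 2 lower. An Allergen V5 locus outside the run, Os05t0595200-01, had 8.03, 14.5 and 11.95 RPM in GW6a-4.6-labelled libraries and 63.8 and 62.4 RPM in Nipponbare (5.48-fold lower). The limits of the run and the PR-1a, thaumatin-like and PBZ1 loci were chosen after values were seen.

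Glucanases and WRKY factors had members with large changes in both directions. Os05t0375400-01, a beta-glucanase precursor, had 153, 164 and 168 RPM in the libraries labelled GW6a-4.6, against 6.73 and 4.61 RPM in Nipponbare, and was 28.5-fold higher (log2 change 4.62, SE 0.13, limma, Benjamini-Hochberg adjusted p = 6.2e-27). Os07t0539900-01, similar to a beta-1,3-glucanase, had 719.7, 749.7 and 661 RPM in GW6a-4.6-labelled libraries and 132 and 120.0 RPM in Nipponbare (5.63-fold higher). WRKY 62 (Os09t0417800-01) had 58.2, 44.3 and 48.9 RPM in GW6a-4.6-labelled libraries and 5.27 and 5.76 RPM in Nipponbare (9.16-fold higher), and the locus similar to WRKY 45 (Os05t0322900-01), which carries salicylate-type resistance in rice, had 285, 249 and 255 RPM in GW6a-4.6-labelled libraries and 116 and 118 RPM in Nipponbare (2.24-fold higher). Against these, the locus similar to WRKY 28 (Os06t0649000-02) had 11.2, 6.69 and 6.70 RPM in GW6a-4.6-labelled libraries and 51.8 and 47.6 RPM in Nipponbare (6.05-fold lower), and WRKY 74 (Os09t0334500-01) was 2.93-fold lower. The WRKY 28 locus lies within 50 tested loci of GW6a on chromosome 6.

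Receptor and calcium signalling families had shares nearer those of all loci. Leucine-rich repeat (LRR) proteins and receptor kinases had 313 members in the table, 265 of them tested, and 89 were higher and 56 lower, with a median log2 change of 0.12. For lectin-domain proteins, 16 of 58 tested members (73 in the table) were higher and 15 lower, and for calmodulins and EF-hand proteins 11 of 60 tested members (74 in the table) were higher and 15 lower. The lectin median turned to -0.04 under median-ratio scaling. Os11t0514500-01, an extracellular LRR protein, had 343, 336 and 312 RPM in GW6a-4.6-labelled libraries and 33.6 and 34.2 RPM in Nipponbare (9.74-fold higher). NB-ARC locus Os11t0225300-01 had 1.25, 1.72 and 1.99 RPM in GW6a-4.6-labelled libraries and 39.1 and 37.4 RPM in Nipponbare (23.1-fold lower), and the agglutinin Os04t0173800-01 had 17.5, 13.4 and 16.7 RPM in GW6a-4.6-labelled libraries and 207 and 188 RPM in Nipponbare (12.5-fold lower). Among LRR proteins, the 56 lower became 27 with Nipponbare replicate 2 left out. Among EF-hand proteins, the 11 higher became 6 with Nipponbare replicate 2 left out.

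**Figure D3:**
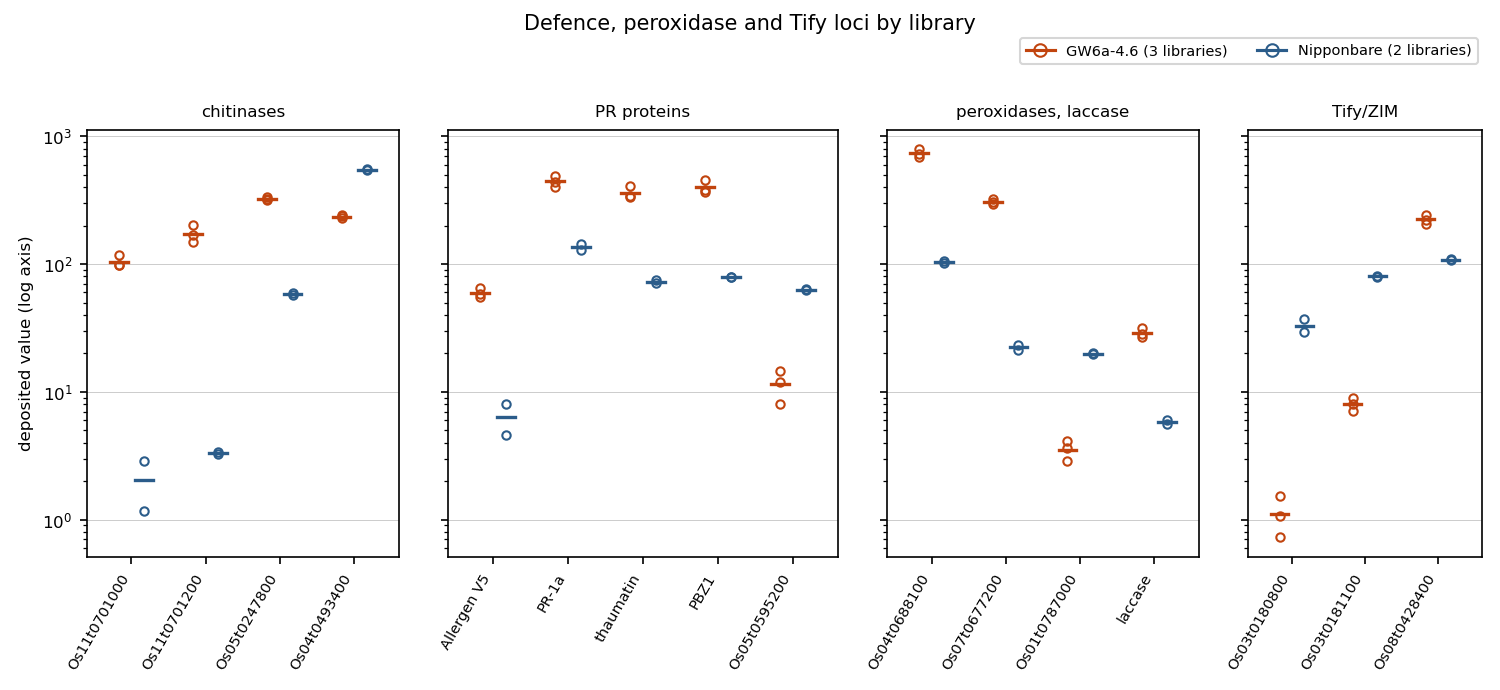
Deposited values in RPM (log axis) of chitinase, PR protein, peroxidase, laccase and Tify/ZIM loci in each library, GW6a-4.6-labelled on the left of each pair and Nipponbare on the right. Circles are libraries (3 and 2) and bars are group means. Chitinase Os04t0493400, Allergen V5 locus Os05t0595200, peroxidase Os01t0787000 and Tify loci Os03t0180800 and Os03t0181100 lie lower in the GW6a-4.6-labelled libraries, and the others higher.

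Many wall-loosening and cross-linking enzymes were higher, while more cellulose synthase loci were lower than higher. Class III peroxidases, secreted enzymes that cross-link walls and make oxygen radicals, had 142 members in the table, 117 of them tested, and 66 were higher and 9 lower, with a median log2 change of 0.76. Laccases and multicopper oxidases, which couple lignin monomers, had 27 members in the table, 22 of them tested, and 14 were higher and 0 lower, with a median log2 change of 0.88. Pectin-modifying enzymes had 133 members in the table, 86 of them tested, and 40 were higher and 15 lower, with a median log2 change of 0.53. For phenylpropanoid and lignin enzymes 18 of 52 tested members (66 in the table) were higher and 9 lower, and 14 were lower under median-ratio scaling. Expansins, which loosen walls in growing cells, had 52 members in the table, 37 of them tested, and 26 were higher and 0 lower, with a median log2 change of 1.16, and 23 of the 26 were higher by at least 1 on the log2 scale. The cellulose synthase family had 30 members in the table, 27 of them tested, and 6 were higher and 13 lower, with a median log2 change of -0.28. Among laccases, the 0 lower became 1 with GW6a-4.6 replicate 2 left out. Among lignin enzymes, the 9 lower became 14 with OsglHAT1-OE replicate 3 left out. Among cellulose synthase loci, the 6 higher became 3 with Nipponbare replicate 1 left out. Among peroxidases, the 9 lower became 3 with Nipponbare replicate 1 left out.

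Peroxidase Os04t0688100-01 had 793, 688 and 731 RPM in the libraries labelled GW6a-4.6, against 106 and 101 RPM in Nipponbare, and was 7.11-fold higher (log2 change 2.82, SE 0.09, limma, Benjamini-Hochberg adjusted p = 6.9e-26). Peroxidase Os07t0677200-01 had 322, 306 and 297 RPM in GW6a-4.6-labelled libraries and 23.4 and 21.1 RPM in Nipponbare (13.9-fold higher). It lies in a run of 7 peroxidase loci on chromosome 7, of which 6 were higher and none lower, the limits of the run being set after values were seen. Peroxidase Os01t0787000-01 had 4.11, 2.87 and 3.62 RPM in GW6a-4.6-labelled libraries and 19.7 and 19.97 RPM in Nipponbare (5.62-fold lower). Laccase Os05t0458600-01 had 26.8, 28.3 and 31.3 RPM in GW6a-4.6-labelled libraries and 5.997 and 5.57 RPM in Nipponbare (4.98-fold higher). Phenylalanine ammonia-lyase Os02t0626100-01, the entry to phenylpropanoids, had 2349, 2255 and 2308 RPM in GW6a-4.6-labelled libraries and 1242 and 1200 RPM in Nipponbare (1.89-fold higher), and Os02t0808800-01, similar to cinnamoyl-CoA reductase, the first step specific to lignin monomers, had 39.1, 32.1 and 35.5 RPM in GW6a-4.6-labelled libraries and 0.439 and 0.384 RPM in Nipponbare (86.4-fold higher). Both enzymes were higher in every GW6a-4.6-labelled library.

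Pectinesterases strip methyl groups from pectin and so alter its stiffness. Os01t0788400-01 of this class had 144, 139 and 128 RPM in the libraries labelled GW6a-4.6, against 9.51 and 11.5 RPM in Nipponbare, and was 13.03-fold higher (log2 change 3.59, SE 0.17, limma, Benjamini-Hochberg adjusted p = 4.6e-20). Os02t0658800-01, a beta-expansin, had 61.05, 48.7 and 49.4 RPM in GW6a-4.6-labelled libraries and 4.83 and 7.10 RPM in Nipponbare (8.90-fold higher), and Os03t0102700-01, similar to expansin B7, had 26.1, 14.1 and 18.1 RPM in GW6a-4.6-labelled libraries and 2.05 and 0.960 RPM in Nipponbare (12.9-fold higher). No library overlapped between the groups at these loci. Under 6 of the alternative settings 1 expansin passed as lower, the expansin-like locus Os07t0475400-01 with 57.1, 48.5 and 53.2 RPM in GW6a-4.6-labelled libraries and 63.8 and 64.1 RPM in Nipponbare, chosen after its values were seen. Xyloglucan endotransglucosylases, which cut and rejoin the hemicellulose that ties cellulose fibres, had 15 members in the table, 14 of them tested, and 5 were higher and 5 lower, with a median log2 change of -0.21. Os06t0697000-02 of these had 540.1, 454 and 501 RPM in GW6a-4.6-labelled libraries and 974 and 905 RPM in Nipponbare (1.89-fold lower). Among these loci, the 5 higher became 3 with Nipponbare replicate 2 left out, and the 5 lower became 2 with Nipponbare replicate 1 left out, 3 with GW6a-4.6 replicate 2 left out and 3 with GW6a-4.6 replicate 3 left out.

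Cellulose synthase catalytic subunits assemble into the complexes that spin cellulose at the plasma membrane. After the values were seen, loci annotated as cellulose synthase were separated from those annotated as cellulose synthase-like, and 1 of 14 tested were higher and 8 lower. The annotation text may leave some synthase-like proteins among them. Os07t0252400-01, similar to cellulose synthase-8, had 299.5, 376 and 345 RPM in the libraries labelled GW6a-4.6, against 916 and 941 RPM in Nipponbare, and was 2.73-fold lower (log2 change -1.45, SE 0.09, limma, Benjamini-Hochberg adjusted p = 7.2e-17). Os08t0160500-01 had 217, 226 and 242 RPM in GW6a-4.6-labelled libraries and 524 and 533 RPM in Nipponbare (2.31-fold lower). Os05t0176100-05, the highest member and similar to RSW1, had 664, 832 and 729.9 RPM in GW6a-4.6-labelled libraries and 1144 and 1182 RPM in Nipponbare (1.57-fold lower). No GW6a-4.6-labelled library reached Nipponbare at these 3 loci. Os12t0555600-01, similar to cellulose synthase-like D4, had 111, 107 and 108 RPM in GW6a-4.6-labelled libraries and 58.6 and 54.5 RPM in Nipponbare (1.92-fold higher). Os12t0555600-01 was chosen after its values were seen.

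Specialised metabolism was split by enzyme class. Terpene synthases and cyclases, which include makers of rice phytoalexins and of the gibberellin precursor, had 41 members in the table, 28 of them tested, and 14 were higher and 2 lower, with a median log2 change of 0.65. Os03t0347900-01, a terpenoid synthase, had 58.01, 62.1 and 56.7 RPM in the libraries labelled GW6a-4.6, against 1.17 and 1.34 RPM in Nipponbare, and was 46.9-fold higher (log2 change 4.73, SE 0.16, limma, Benjamini-Hochberg adjusted p = 8.2e-25). Os04t0178300-02, similar to syn-copalyl diphosphate synthase, which starts the momilactone phytoalexins, had 256, 279.8 and 261 RPM in GW6a-4.6-labelled libraries and 81.2 and 76.4 RPM in Nipponbare (3.37-fold higher) and was chosen after its values were seen. Cytochromes P450, oxidases of many pathways, had 276 members in the table, 217 of them tested, and 54 were higher and 77 lower, with a median log2 change of -0.09, and UDP-glucosyltransferases, which attach sugars to small molecules, had 154 members in the table, 125 of them tested, and 27 were higher and 42 lower, with a median log2 change of -0.23. Os09t0441400-01, an elicitor-inducible P450, had 333, 291 and 314 RPM in GW6a-4.6-labelled libraries and 1086 and 985 RPM in Nipponbare (3.31-fold lower). Os12t0150200-01, similar to CYP94C20, a family known in Arabidopsis to oxidise jasmonoyl-isoleucine, had 3.39, 7.07 and 3.98 RPM in GW6a-4.6-labelled libraries and 65.5 and 57.2 RPM in Nipponbare (12.7-fold lower). Both P450 loci were high in Nipponbare without overlap. Flavonoid enzymes had 76 members in the table, 54 of them tested, and 17 were higher and 13 lower, with a median log2 change of 0.24. Among terpene synthases, the 2 lower became 1 with Nipponbare replicate 2 left out.

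Lipid transfer proteins and GDSL lipases had more higher than lower loci, as had all tested loci. The shares higher were 36.2% and 38.2%, against 26.7% of all tested loci. The shares lower were 17.4% and 14.55%, against 19.5%. Lipid transfer proteins, which carry lipids across the wall, had 86 members in the table, 69 of them tested, and 25 were higher and 12 lower, with a median log2 change of 0.28, and GDSL lipases had 68 members in the table, 55 of them tested, and 21 were higher and 8 lower, with a median log2 change of 0.23. Os01t0822900-03, a lipid transfer protein, had 1079, 938 and 1005 RPM in GW6a-4.6-labelled libraries and 452 and 433 RPM in Nipponbare (2.28-fold higher, log2 change 1.18, SE 0.08). Among proteases, subtilisin-like ones had 62 members in the table, 47 of them tested, and 11 were higher and 9 lower, with a median log2 change of 0.15. Their shares, 23.4% higher and 19.15% lower, were near those of all tested loci. Os01t0795400-01, similar to a subtilase, had 499, 535 and 502 RPM in the libraries labelled GW6a-4.6, against 47.4 and 59.9 RPM in Nipponbare, and was 9.54-fold higher (log2 change 3.24, SE 0.10, limma, Benjamini-Hochberg adjusted p = 2.3e-25). Among lipid transfer proteins, the 12 lower became 7 with Nipponbare replicate 1 left out. Among subtilisin-like proteases, the 9 lower became 5 with Nipponbare replicate 1 left out.

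Most transporter families described here held more lower than higher loci. Sugar transporters had 65 members in the table, 54 of them tested, and 14 were higher and 18 lower, with a median log2 change of -0.06. Amino acid and peptide transporters had 155 members in the table, 135 of them tested, and 29 were higher and 45 lower, with a median log2 change of -0.11. For phosphate, sulphate, ammonium and potassium transporters 14 of 64 tested members (70 in the table) were higher and 23 lower, and for metal transporters 5 of 37 tested members (41 in the table) were higher and 11 lower. For ABC transporters, which move many compounds with ATP, 19 of 93 tested members (105 in the table) were higher and 31 lower, and for aquaporins, the water channels, 5 of 21 tested members (26 in the table) were higher and 6 lower. Among the ion transporters, the 14 higher became 8 with Nipponbare replicate 2 left out. Among metal transporters, the 5 higher became 3 with Nipponbare replicate 1 left out and 2 with Nipponbare replicate 2 left out, and the 11 lower became 7 with Nipponbare replicate 2 left out. Among aquaporins, the 5 higher became 3 with Nipponbare replicate 2 left out and 3 with GW6a-4.6 replicate 1 left out. With the replicate block 8 aquaporins were higher and 7 lower, and with only the 5 libraries in the fit 7 were higher and 6 lower.

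Among sugar carriers, Os02t0513100-01, of the MtN3 (SWEET) exporters that let sucrose or hexose leave cells, had 1.07, 1.15 and 0.724 RPM in the libraries labelled GW6a-4.6, against 69.04 and 68.4 RPM in Nipponbare, and was 70.05-fold lower (log2 change -5.14, SE 0.29, limma, Benjamini-Hochberg adjusted p = 1.3e-17). Another MtN3 locus, Os11t0508600-01, had 44.6, 46.1 and 44.6 RPM in GW6a-4.6-labelled libraries and 2.93 and 4.80 RPM in Nipponbare (11.7-fold higher). SWEET3a (Os05t0214300-00) had 22.5, 22.6 and 19.9 RPM in GW6a-4.6-labelled libraries and 95.7 and 110.2 RPM in Nipponbare (4.75-fold lower). These SWEET loci thus moved in different directions. Os03t0197100-01, similar to a sugar transporter, had 93.7, 86.4 and 88.6 RPM in GW6a-4.6-labelled libraries and 539 and 517 RPM in Nipponbare (5.89-fold lower). Amino acid transporter Os01t0908600-01 had 123, 112 and 126 RPM in GW6a-4.6-labelled libraries and 5.27 and 3.84 RPM in Nipponbare (26.4-fold higher, log2 change 4.46, SE 0.14).

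For ions and water, OsNramp1 (Os07t0258400-01), a metal importer, had 33.6, 34.2 and 35.1 RPM in the libraries labelled GW6a-4.6, against 478 and 475 RPM in Nipponbare, and was 13.9-fold lower (log2 change -3.76, SE 0.15, limma, Benjamini-Hochberg adjusted p = 1.6e-22). The potassium carrier similar to OsHAK1 (Os03t0574900-01) had 2.50, 2.29 and 2.90 RPM in GW6a-4.6-labelled libraries and 25.2 and 29.96 RPM in Nipponbare (10.8-fold lower). Aquaporin PIP1.1 (Os04t0559700-01), of the plasma membrane, had 505, 483 and 496 RPM in GW6a-4.6-labelled libraries and 1268 and 1257 RPM in Nipponbare (2.55-fold lower). A delta-tonoplast intrinsic protein, an aquaporin of the vacuole, had 713, 605 and 632 RPM in GW6a-4.6-labelled libraries and 262 and 259 RPM in Nipponbare at Os06t0336200-01 (2.50-fold higher). Plasma membrane and vacuolar examples thus differed in direction, and which member stands for each was fixed by the size of the change.

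Many growth-associated transcription factors were higher. SBP, TCP, YABBY and GRF factors, which pattern leaves and panicles, had 44 members in the table, 42 of them tested, and 24 were higher and 3 lower, with a median log2 change of 0.50. By role, a split made after the values were seen, 6 of 9 tested were higher and 0 lower among growth-regulating factors, 4 of 5 tested were higher and 0 lower among YABBY, 5 of 8 tested were higher and 1 lower among TCP and 3 of 6 tested were higher and 0 lower among SBP proteins. The locus similar to growth-regulating factor 7 (Os12t0484900-01) had 137, 149.9 and 133 RPM in the libraries labelled GW6a-4.6, against 34.2 and 34.6 RPM in Nipponbare, and was 4.07-fold higher (log2 change 1.99, SE 0.11, limma, Benjamini-Hochberg adjusted p = 8.4e-18). That of growth-regulating factor 3 (Os03t0674700-01) had 104, 97.5 and 109.9 RPM in GW6a-4.6-labelled libraries and 38.3 and 37.1 RPM in Nipponbare (2.75-fold higher). A TCP factor, Os02t0828566-01, had 109, 105 and 106 RPM in GW6a-4.6-labelled libraries and 41.98 and 39.7 RPM in Nipponbare (2.61-fold higher). Against the trend, the TCP-domain locus Os01t0246200-00 had 5.89, 5.73 and 6.34 RPM in GW6a-4.6-labelled libraries and 166 and 130.4 RPM in Nipponbare (24.8-fold lower, log2 change -4.41, SE 0.21). The highest member, Os08t0513700-01, similar to SPL15, did not pass with 463, 529 and 489 RPM in GW6a-4.6-labelled libraries and 524 and 579.5 RPM in Nipponbare (log2 change -0.16, SE 0.08, limma, Benjamini-Hochberg adjusted p = 0.1).

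Stress and hormone factor families were mixed. AP2/ERF factors, named after the ethylene response, had 85 members in the table, 71 of them tested, and 28 were higher and 11 lower, with a median log2 change of 0.36. Os09t0287000-01, similar to ethylene-responsive factor 5, had 88.2, 83.7 and 91.6 RPM in the libraries labelled GW6a-4.6, against 4.10 and 3.07 RPM in Nipponbare, and was 24.5-fold higher (log2 change 4.28, SE 0.16, limma, Benjamini-Hochberg adjusted p = 3.2e-23). Os03t0183000-02, similar to RAP2.6, had 227, 225 and 218 RPM in GW6a-4.6-labelled libraries and 16.8 and 19.97 RPM in Nipponbare (12.1-fold higher), and its near neighbour OsERF3 (Os03t0182800-01) had 134, 109 and 116 RPM in GW6a-4.6-labelled libraries and 14.6 and 18.1 RPM in Nipponbare (7.33-fold higher). These ERF loci did not overlap between groups. bHLH factors had 117 members in the table, 102 of them tested, and 45 were higher and 19 lower, with a median log2 change of 0.44. For MYB factors 55 of 186 tested members (211 in the table) were higher and 29 lower, and for homeobox factors 23 of 58 tested members (70 in the table) were higher and 10 lower. For bZIP factors 14 of 50 tested members (54 in the table) were higher and 20 lower, for NAC factors 13 of 69 tested members (83 in the table) were higher and 16 lower and for MADS-box factors 5 of 26 tested members (44 in the table) were higher and 9 lower. Among MYB factors, the 29 lower became 18 with Nipponbare replicate 1 left out. Among bZIP factors, the 14 higher became 8 with Nipponbare replicate 1 left out and 9 with Nipponbare replicate 2 left out, and the 20 lower became 12 with Nipponbare replicate 2 left out. Among NAC factors, the 13 higher became 7 with Nipponbare replicate 2 left out. Among MADS-box factors, the 5 higher became 1 with Nipponbare replicate 1 left out, 1 with Nipponbare replicate 2 left out and 2 with GW6a-4.6 replicate 1 left out, and the 9 lower became 5 with Nipponbare replicate 1 left out.

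Within these families, members with large changes included stress and flowering regulators. The bHLH locus Os04t0301500-01 had 1.07, 1.15 and 1.09 RPM in GW6a-4.6-labelled libraries and 109 and 89.5 RPM in Nipponbare (90.3-fold lower), and another bHLH locus, Os04t0489600-02, had 64.4, 52.9 and 53.97 RPM in GW6a-4.6-labelled libraries and 0.585 and 1.15 RPM in Nipponbare (65.8-fold higher). Os04t0541700-01, similar to the homeodomain-leucine zipper HOX22, had 2.86, 3.06 and 1.63 RPM in GW6a-4.6-labelled libraries and 39.8 and 40.1 RPM in Nipponbare (15.9-fold lower). Os02t0766700-01, similar to an abscisic acid response element-binding bZIP factor, had 53.4, 53.3 and 55.6 RPM in GW6a-4.6-labelled libraries and 129.9 and 129 RPM in Nipponbare (2.39-fold lower). Os07t0605200-01, OsMADS18, a floral-transition MADS gene, had 19.8, 18.4 and 15.6 RPM in GW6a-4.6-labelled libraries and 47.7 and 44.5 RPM in Nipponbare (2.57-fold lower). Of these 5 loci 4 were lower in every GW6a-4.6-labelled library and Os04t0489600-02 was higher in every one.

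Many motor and cytoskeletal proteins of dividing cells were higher. Kinesins, the microtubule motors, had 40 members, all tested, and 27 were higher and 2 lower, with a median log2 change of 0.57. Tubulins and microtubule-associated proteins had 42 members, all tested, and 24 were higher and 3 lower, with a median log2 change of 0.41. Os12t0590500-00, a kinesin, had 119, 155 and 146 RPM in the libraries labelled GW6a-4.6, against 40.7 and 42.6 RPM in Nipponbare, and was 3.36-fold higher (log2 change 1.72, SE 0.11, limma, Benjamini-Hochberg adjusted p = 1.7e-15). Os07t0507200-01, annotated as cell cycle regulated and binding microtubules, had 179, 173 and 177 RPM in GW6a-4.6-labelled libraries and 66.4 and 61.1 RPM in Nipponbare (2.77-fold higher), and KNOLLE (Os03t0736500-01), the syntaxin known from Arabidopsis to build the cell plate, had 104, 103 and 116 RPM in GW6a-4.6-labelled libraries and 40.1 and 39.9 RPM in Nipponbare (2.69-fold higher). Syntaxins are SNARE proteins, and that family did not lean the same way. Of 78 tested SNARE and exocyst loci 20 were higher and 17 lower, and 19 and 30 under median-ratio scaling. Of 81 tested actins, profilins and actin-binding proteins 26 were higher and 12 lower, and 25 and 20 under median-ratio scaling. Alpha-tubulin Os11t0247300-01, the highest member, had 7992, 7776 and 7801 RPM in GW6a-4.6-labelled libraries and 5952 and 5660 RPM in Nipponbare (1.35-fold higher). The shoot meristem marker sums were also higher, as given above, and their part in these rises was not tested. Among kinesins, the 2 lower became 1 with Nipponbare replicate 2 left out. Among tubulin-family loci, the 3 lower became 1 with Nipponbare replicate 2 left out.

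More chromatin and DNA repair loci were higher than lower, as over all tested loci. Proteins with SET, chromo or bromodomains, SNF2 and DNA methylation proteins had 104 members in the table, 96 of them tested, and 31 were higher and 11 lower, with a median log2 change of 0.18, with 22 lower under median-ratio scaling, and DNA repair and recombination proteins had 60 members, all tested, and 29 were higher and 5 lower, with a median log2 change of 0.28. Os09t0556700-01, a SET domain protein of the class that methylates histones, had 243, 244 and 255 RPM in GW6a-4.6-labelled libraries and 73.6 and 74.1 RPM in Nipponbare (3.35-fold higher, log2 change 1.73, SE 0.09). Argonaute 7 (Os03t0449200-00), which binds small RNAs, had 21.4, 25.4 and 26.3 RPM in GW6a-4.6-labelled libraries and 4.39 and 5.95 RPM in Nipponbare (4.71-fold higher). Os01t0144340-00, similar to actin-related protein 5, a part of chromatin remodelling complexes, had 358, 387 and 386 RPM in GW6a-4.6-labelled libraries and 48.9 and 45.7 RPM in Nipponbare (7.98-fold higher). All 3 were higher without overlap, a condition under which loci were named. A log2 change of at least 1 was reached by 10 of the 96 chromatin loci and 12 of the 60 repair loci, all of them higher. Over all tested loci 10.5% were higher and 6.45% lower by as much. The chromatin loci were thus near the general share of such rises. Among the chromatin proteins, the 11 lower became 7 with Nipponbare replicate 2 left out. Among DNA repair proteins, the 5 lower became 2 with Nipponbare replicate 2 left out.

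Translation factors moved little, and more were lower than higher. Translation initiation and elongation factors had 85 members in the table, 80 of them tested, and 6 were higher and 33 lower, with a median log2 change of -0.17, and only 4 of them changed by at least 1 on the log2 scale. The initiation factor similar to eIF-6 (Os01t0280500-01), which keeps ribosomal subunits apart, had 0.714, 0.765 and 1.45 RPM in the libraries labelled GW6a-4.6, against 19.02 and 19.6 RPM in Nipponbare, and was 19.8-fold lower (log2 change -3.38, SE 0.32, limma, Benjamini-Hochberg adjusted p = 1.9e-11). Os02t0300700-01, similar to eIF-1A, had 73.2, 65.8 and 57.4 RPM in GW6a-4.6-labelled libraries and 140.1 and 126 RPM in Nipponbare (2.03-fold lower). The most abundant member, elongation factor EF-2 (Os02t0519900-01), did not pass with 2139, 2416 and 2337 RPM in GW6a-4.6-labelled libraries and 2470 and 2480 RPM in Nipponbare (log2 change -0.11, SE 0.07, limma, Benjamini-Hochberg adjusted p = 0.18). Cytosolic ribosomal proteins had 278 members in the table, 268 of them tested, and 52 were higher and 33 lower, with a median log2 change of 0.01. Their direction depended on scaling, with a median of -0.06 and 43 higher and 64 lower under median-ratio scaling and 0.04 with 79 higher and 46 lower under quantile normalization. Among cytosolic ribosomal proteins, the 52 higher became 27 with Nipponbare replicate 1 left out and 22 with Nipponbare replicate 2 left out, and the 33 lower became 15 with Nipponbare replicate 1 left out.

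Pentatricopeptide repeat proteins, which edit and process organelle transcripts, had 343 members in the table, 339 of them tested, and 20 were higher and 56 lower, with a median log2 change of -0.14, and only 3 changed by at least 1 on the log2 scale. The shares were 5.9% higher and 16.5% lower, against 26.7% and 19.5% of all tested loci. The family was thus called less often than loci in general in both directions. Their count of 56 lower was 80 under median-ratio scaling and 93 under quantile normalization. Among these repeat proteins, the 20 higher became 11 with Nipponbare replicate 1 left out and 11 with Nipponbare replicate 2 left out, and the 56 lower became 32 with Nipponbare replicate 1 left out and 35 with Nipponbare replicate 2 left out. Os03t0701400-01, similar to PPR868-14, had 23.7, 29.8 and 27.5 RPM in GW6a-4.6-labelled libraries and 69.04 and 72.4 RPM in Nipponbare (2.62-fold lower). DEAD-box helicases, which unwind RNA, had 77 members in the table, 76 of them tested, and 14 were higher and 32 lower, with a median log2 change of -0.14. For RNA recognition motif and SR proteins, 34 of 145 tested members (151 in the table) were higher and 37 lower. Among helicases, the 14 higher became 9 with Nipponbare replicate 1 left out and 9 with Nipponbare replicate 2 left out. Among the recognition motif proteins, the 34 higher became 22 with Nipponbare replicate 1 left out, and the 37 lower became 24 with Nipponbare replicate 1 left out and 24 with Nipponbare replicate 2 left out. SR-type splicing factor Os07t0633200-02, similar to SCL30a, had 8.21, 9.37 and 9.24 RPM in GW6a-4.6-labelled libraries and 68.3 and 59.7 RPM in Nipponbare (7.16-fold lower, log2 change -2.71, SE 0.22). Proteasome subunits, the core of protein turnover, had 54 members, all tested, and 23 were higher and 2 lower, with a median log2 change of 0.18, none by as much as 1 on the log2 scale. Alpha subunit 5 (Os11t0615700-01) had 207, 193 and 207 RPM in GW6a-4.6-labelled libraries and 120.1 and 115 RPM in Nipponbare (1.72-fold higher). Under median-ratio scaling 21 proteasome subunits were higher and 8 lower. Among proteasome subunits, the 2 lower became 1 with Nipponbare replicate 1 left out, 1 with Nipponbare replicate 2 left out, 1 with GW6a-4.6 replicate 2 left out and 1 with GW6a-4.6 replicate 3 left out.

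Some loci had reads in only 1 of the compared groups. At 24 loci every GW6a-4.6-labelled library had at least 10 RPM and neither Nipponbare library had a read, and at 8 loci the reverse held. Among the 24, 8 were annotated similar to HAT family dimerisation proteins, the domain of hAT transposases, on chromosomes 1, 5, 11 and 12. Os01t0722550-00 of these had 49.98, 53.5 and 47.1 RPM in the libraries labelled GW6a-4.6, against 0 and 0 RPM in Nipponbare, at least 201.5-fold higher when Nipponbare is set to 3 reads over the group. The OsglHAT1-OE libraries had 0 to 0.522 RPM at the 8 loci. The other 7 HAT loci had 27.4 to 39.4 RPM in the libraries labelled GW6a-4.6, so close to each other that shared reads of alike copies and separate transcripts cannot be told apart. Of all 26 tested HAT loci, grouped after the values were seen, 10 were higher and 8 lower. Os10t0549900-01, a locus with a domain of unknown function, showed the same pattern, with 38.4, 39.6 and 32.8 RPM in GW6a-4.6-labelled libraries and no read in Nipponbare.

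All of the other GW6a-4.6-only loci were also read in every OsglHAT1-OE library, so they lacked reads in Nipponbare alone. The highest was Os03t0299700-01, a conserved hypothetical protein, with 241, 244 and 239 RPM in GW6a-4.6-labelled libraries and no read in Nipponbare. It had 210.5, 219 and 184.7 RPM in the OsglHAT1-OE libraries. Of the 8 loci read only in Nipponbare, Os07t0142100-00, conserved hypothetical, had no read in the libraries labelled GW6a-4.6, against 138 and 140.2 RPM in Nipponbare. Os10t0315400-01, similar to SKIP interacting protein 28, had none in the libraries labelled GW6a-4.6, against 97.9 and 126 RPM in Nipponbare. Os04t0610600-01, similar to the cold-regulated Cor14b, had none in the libraries labelled GW6a-4.6, against 37.4 and 30.3 RPM in Nipponbare. The OsglHAT1-OE libraries had at most 0.295 RPM at these 8 loci. Whether reads of another cultivar's sequence failed to align to the Nipponbare genome at any of them was not tested.

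Along the chromosomes, changed loci were spread over all 12. The share called ran between 42.8% on chromosome 11 and 48.8% on chromosome 7. Chromosome 7 also had the highest share of loci higher by at least 1 on the log2 scale, 13.8%, against 8.96% on chromosome 2. The share lower by as much was 5.20% on chromosome 7, against 7.65% on chromosome 1. In 308 blocks of 100 neighbouring tested loci, the block with most such changes, higher and lower together, was on chromosome 7 between Os07t0118300 and Os07t0133700, with 32 higher and 7 lower. It holds the run of PR-1 loci, of which all 15 tested were higher. Alike copies there may share reads, so the count of this block may hold the same reads more than once. Loci left over at the chromosome ends were in no block, among them the chitinase run of chromosome 11. The next, with 27 higher and 7 lower, is near the other end of chromosome 7 and holds the run of peroxidase loci. The excess was not confined to these runs. Further chromosome 7 blocks, holding neither run, ranked 3 (22 higher and 11 lower), 4 (25 and 7) and 6 (23 and 8). A block of chromosome 10 shared rank 4, with 22 higher and 10 lower. The cause of the excess on chromosome 7 was not tested. The block of GW6a on chromosome 6 ranked 163 of 308. Of the 50 tested loci on each side of GW6a, 24 were higher and 18 lower, 42% against 46.3% of all tested loci, and 5 and 6 by at least 1 on the log2 scale. The share called around GW6a was thus slightly below that of the genome.

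**Figure D4:**
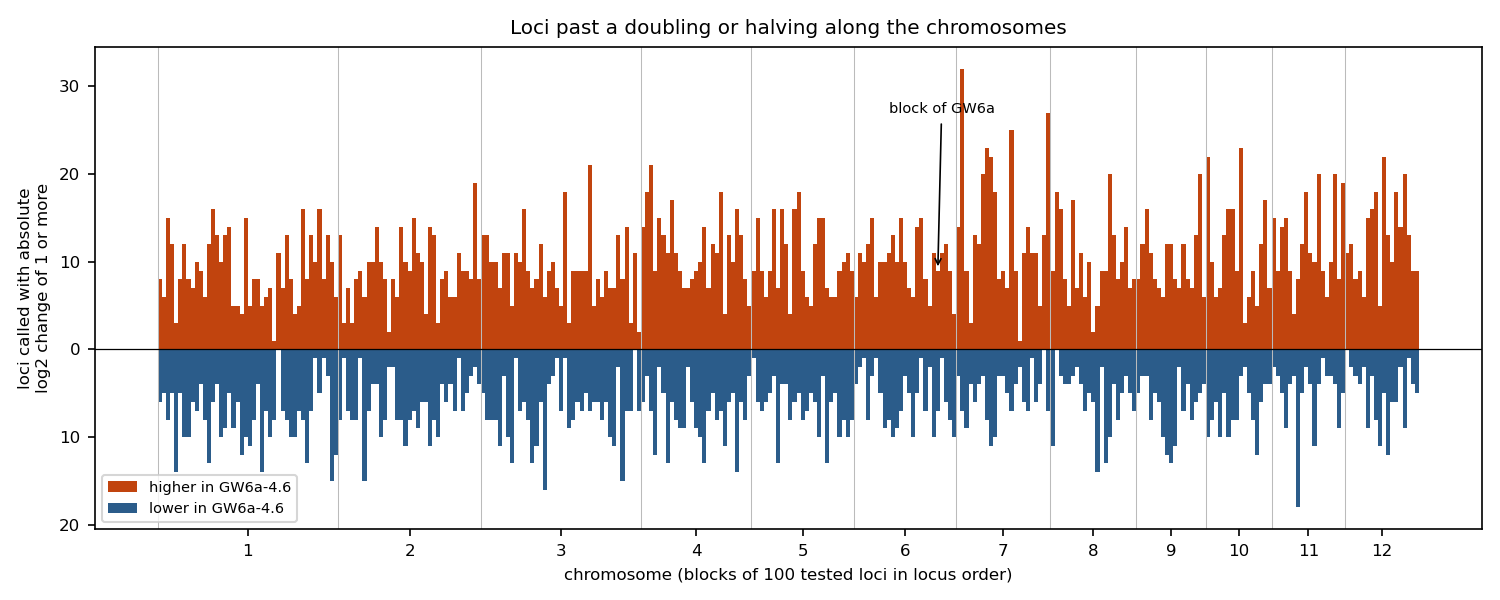
Number of loci called with a log2 change of at least 1 (upward bars, higher in libraries labelled GW6a-4.6) or of -1 or less (downward bars, lower) in each block of 100 tested loci in locus order, for chromosomes 1 to 12. The tallest bars stand at the 2 ends of chromosome 7, with 32 and 27 higher loci, and the arrow marks the block that holds GW6a. Alike neighbouring copies that may share reads are counted as separate loci.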

How the data were processed

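Total RNA (RNeasy columns, DNase) was made into single-end TruSeq libraries, per the labels' protocols. The authors deposited 1 table of signal per gene model, named RPM in the file headers. Bowtie, edgeR and the IRGSP-1.0 genome are named in the submitters' processing notes. The deposited signal columns sum to 2661165 to 2674007 in these 5 libraries, that is, a read was counted at more than 1 model on average. Every value was a whole multiple of 1 read (100% within 0.01 of a whole read), so whole reads were recovered and library totals follow from the value of 1 read. Values of near-identical loci are therefore uncertain.

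For each locus (first 12 characters of the model name) the model with the highest mean was kept. Loci at 1 or more in at least 2 of 8 libraries were tested on log2(value + 1), pseudocount 1, with limma 3.58.1 in R 4.3.3, all 8 libraries sharing one spread, and Benjamini-Hochberg adjustment over 31487 loci at 0.05. Values were planned to be strict RPM, and the test was kept. Log2 changes are on that scale and understate changes of low loci, and folds are ratios of group means. Floors are 3 reads over the group and cover counting error only. Count tests on the whole reads (edgeR 4.0.16, DESeq2 1.42.0), 2 scalings, other pseudocounts and filters, summed models, a replicate block and leaving out each library were the alternatives. On simulated data limma recovered 78 of 100 loci changed by 1 and 98 of 100 changed by 2 on the log2 scale, and called 10 of 31287 unchanged loci. The simulation gave every locus the same excess spread and changed only loci above a minimum of reads. Shared reads and the large share of called loci were not simulated, so these rates need not hold for the comparison itself. Families come from text patterns on the annotation column, 80 in all, with 26 loci in more than 1. Named loci are, per family, the 3 largest non-overlapping changes in the prevailing direction, the largest in the other, the member with the highest mean, the largest changes in RPM and loci read in 1 group. Members and lists were chosen with earlier results of these data known. No sequence is printed.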

Additional observations from a re-analysis of the deposited data

How the results depend on the processing

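The count of 14566 called loci (8413 higher, 6153 lower) stayed within 1.5 times under every alternative, and so did the count in each direction, but the excess of higher loci shrank under other scalings and tests. Median-ratio scaling gave 7992 higher and 7901 lower, quantile normalization 7964 and 7958, edgeR 8063 and 7598 and DESeq2 7100 and 6946. edgeR and limma both called 14095 loci with the same sign. Leaving out 1 library gave 10718 to 15798 called, 6349 to 9061 higher and 4369 to 6737 lower, and without a Nipponbare library the lone one is assumed to vary like the other groups. The replicate block called 14698 loci, 8977 higher and 5721 lower, with 13855 called both with and without it. Only 2 replicate numbers are shared, and deviations of same-numbered libraries correlated at 0.0648 and 0.0633. With 2 Nipponbare libraries their deviations mirror each other, so these small values cannot decide whether the numbers pair the libraries. Of the 424 loci taken by the naming rule, 395 were called. None that was called in the main fit or in an alternative changed sign between them. The rule took mostly large changes in these same data, so this outcome was nearly fixed in advance and carries no support. Under median-ratio scaling 3 of the 424 lost their call and 11 gained one, and under DESeq2 2 lost and 10 gained one. Family counts that moved by over 1.5 times when a library was left out are given with each family. For SNARE and actin proteins only median-ratio scaling is given. Other settings moved further ones. Lower counts became 5 under median-ratio scaling and edgeR and 4 under quantile normalization for ethylene genes (2), 57 under median-ratio scaling for RNA recognition motif proteins (37), 17 under edgeR for metal transporters (11), 8 under edgeR for DNA repair (5), 5 under quantile normalization for cytokinin genes (3), 5 under median-ratio scaling and edgeR for SBP, TCP, YABBY and GRF factors (3), and 3 with the replicate block for xyloglucan endotransglucosylases (5). Higher counts became 10 under quantile normalization or with only the 5 libraries for translation factors (6), and under DESeq2 they became 6 for photosynthetic proteins (11), 3 for MADS-box factors (5), 9 for bZIP factors (14) and 11 for pentatricopeptide repeat proteins (20). Lower proteasome subunits (2) were 5 to 8, lower lignin enzymes (9) 14, lower photosynthetic proteins (15) 23 to 27, lower chromatin proteins (11) 18 to 22 and lower cytosolic ribosomal proteins (33) 58 to 64 under the scalings and count tests that moved them. Lower terpene synthases (2) and brassinosteroid genes (1) were 0 with the filter at 5, and 1 laccase was lower under quantile normalization or a pseudocount of 2, as was 1 expansin under both other scalings, edgeR and DESeq2 and with only the 5 libraries (0 each). The cause of these moves was not tested. Depth limits loci with few reads in a group, and no fold is given against a group of 1 to 3 reads in all.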
